A study of Mus musculus with 2 samples.

Results

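The barcodes described here are enterocytes, the absorptive epithelial cells of the small intestine, in which transcripts of the mitochondrial genome made up more than 25% and at most 60% of all unique molecular identifiers (UMIs, each standing for 1 captured RNA molecule). They were chosen from measured counts. A barcode needed at least 3000 UMIs, at least 1 Epcam UMI, no Ptprc UMI, fewer than 5 Fcgbp and 3 Dclk1 UMIs, and at least 1% of its UMIs outside the mitochondrial genes from Apoa1, Fabp1, Fabp2 and Rbp2 together. Of 12652 barcodes in the series, 2730 met this rule. They numbered 1044 of 6270 in the Tg library (16.7%, exact 95% binomial interval 15.7 to 17.6%) and 1686 of 6382 in the FMTg library (26.4%, 25.3 to 27.5%). All intervals given here cover counting error only.

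Both libraries were 10x Genomics Chromium 3′ libraries of a single-cell suspension of fresh small intestine from a C57BL/6j mouse at 60 days of age, 24 hours after a single dose of 6 mg tamoxifen per 40 g body weight. The Tg mouse was Mdm2+/- and the FMTg mouse Mdm2FM/-, so that 1 Mdm2 allele was already missing in both. Both also carried Cag-CreERTg, a tamoxifen-dependent Cre recombinase under a promoter that is active in most tissues, so the comparison is not limited to epithelium. The series title describes the comparison as acute p53 activation on loss of Mdm2. With 1 mouse and 1 library per genotype, no difference between genotypes could be tested against the spread between mice, and a difference between the mice or the preparations cannot be told apart from the genotype.

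Mdm2 is the ubiquitin ligase that marks p53 for degradation, and p53, a transcription factor, drives genes of cell cycle arrest, apoptosis and its own feedback, among them Mdm2 itself. Enterocytes are born in the crypt, climb the villus as they mature and are shed at its tip, and they express different genes at the bottom, in the middle and at the tip. A high mitochondrial share is widely read as a sign of a damaged or leaking cell in droplet data, since cytoplasmic RNA can leave the cell while mitochondria stay in it, but cells rich in mitochondria reach high shares too. Which of these applied to the barcodes was not tested.

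Barcodes above 25 to 60% held far fewer non-mitochondrial UMIs than those at or below 25%. Among all barcodes that met the rule at any mitochondrial share (2234 in Tg, 2263 in FMTg), the median share was 54.1% in Tg and 38.6% in FMTg. In Tg, 46.7% of them fell into the range above 25 to 60%, 17.0% were at or below 25% and 36.3% were above 60%. In FMTg, 74.5% fell into the range, 17.8% were at or below 25% and 7.73% were above 60%. The smaller number in Tg was therefore accompanied by a larger number above 60%, 811 barcodes in Tg against 175 in FMTg. Within the range the median share was 48.7% in Tg and 40.2% in FMTg, so that the main comparisons between the libraries are also given within the ranges above 25 to 35% (162 and 498 barcodes in Tg and FMTg), above 35 to 45% (235 and 655) and above 45 to 60% (647 and 533).

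**Figure D1:**
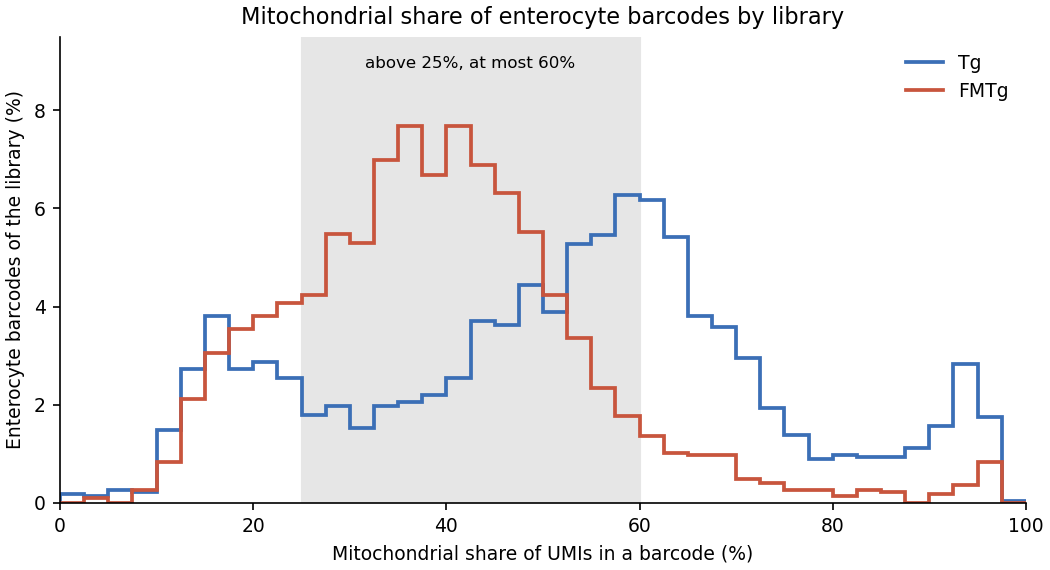
Percent of each library's enterocyte barcodes (vertical axis) by mitochondrial share of UMIs (horizontal axis, in percent), for Tg (blue) and FMTg (red), with the range above 25 to 60% shaded. Tg had 36.3% of its barcodes above 60%, FMTg 7.73%, and the medians were 54.1% and 38.6%.

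The median barcode in the range held 3885.5 mitochondrial UMIs in Tg and 3383 in FMTg, close to the 4893 and 3739 of barcodes that met the same rule at or below 25%. Its other UMIs numbered 4049 in Tg and 4720.5 in FMTg, against 24261 and 16114 at or below 25%. Against barcodes at or below 25%, the range as a whole thus held fewer UMIs from the nuclear genome and not more mitochondrial ones. Among barcodes above 25% this did not hold throughout. In FMTg the median mitochondrial UMIs were 3192, 3200 and 3787 in the 3 ranges of rising share, and 5141 above 60%. In Tg they were 4780, 3906 and 3692, and 4936 above 60%. Detected genes numbered 1703.5 and 1777 in the median barcode in the range and 4268 and 3589 at or below 25%. After each barcode was thinned to 1200 non-mitochondrial UMIs the medians were 692 and 665 genes in the range, and 648 and 664.5 at or below 25%. The number of genes per UMI was then similar in both.

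The make-up of the mitochondrial UMIs varied little with their share. The cytochrome oxidase subunit mt-Co3, for instance, gave 21.9% of the mitochondrial UMIs in the range and 21.5% at or below 25% in Tg, and 20.8% and 20.1% in FMTg. Some genes differed between the libraries. The complex I subunit mt-Nd3 gave 2.03% in Tg and 2.94% in FMTg, and mt-Atp8, a subunit of the ATP synthase, 0.34% and 0.50%. These values describe the genes by which barcodes were chosen and support nothing else.

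Of the 10 enterocyte markers, Epcam, Apoa1, Fabp1, Fabp2 and Rbp2 belong to the rule, so their levels were set by the choice of barcodes and do not bear on the label. The other 5 were found in both libraries. Vil1, the actin bundler villin, stood at 1398 CPM (UMIs scaled to a total of 1000000 non-mitochondrial UMIs) in Tg and 1196 CPM in FMTg, against 51.5 and 35.1 CPM in leukocyte barcodes (Ptprc found, Epcam not found). Cdhr5, a protocadherin that links microvilli, stood at 2638 and 3285 CPM, against 73.0 and 86.5 CPM. Alpi, intestinal alkaline phosphatase of the brush border, had a UMI in 95.5% of barcodes in Tg and 95.3% in FMTg. In the leukocyte barcodes (1190 in Tg, 1608 in FMTg), which should lack the gene, the percentages were 16.5 and 12.1, at a median of 3398 and 3205.5 non-mitochondrial UMIs. Reg3b, an epithelial gene, had a UMI in 99.4% of leukocyte barcodes in Tg and 94.2% in FMTg.

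Markers of several other cell types made up a larger part of the non-mitochondrial UMIs above 25% than below it. The 7 goblet cell markers summed to 1589 CPM in Tg and 1702 in FMTg, against 423 and 696 at or below 25%. The 7 T cell markers summed to 243 and 117 CPM, against 63.5 and 38.1. Red cell markers summed to 257 and 403 CPM, with 648 CPM in the range above 45 to 60% in Tg and 915 CPM in the range above 25 to 35% in FMTg, and under 16 CPM in the other ranges. The 4 stem cell markers summed to 1.5 and 1.8 CPM, with Lgr5 and Ascl2 at 0 in Tg and Ascl2 at 0 in FMTg. The goblet sum includes Fcgbp, a gene of the rule. Limits of the rule on Ptprc, Fcgbp and Dclk1 are numbers of UMIs, so they were stricter per UMI in the deeper barcodes at or below 25%. The part of these limits in the sums was not tested, nor was the part of free RNA, doublets or carried-over cells in the results below. The libraries shared 14 barcode sequences, none of them among the enterocytes in the range.

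The limits of 25% and 60% were set by the rule, and levels were compared just below and just above them. Malat1 stood at 13935 CPM in 23 Tg barcodes with a share between 24 and 25% and at 15403 CPM in 17 between 25 and 26%, and at 40585 and 35389 CPM in 37 and 37 such FMTg barcodes. Around the upper limit it stood at 87362 CPM in 55 Tg barcodes between 59 and 60% and at 80181 CPM in 61 between 60 and 61%, and at 70937 and 83300 CPM (19 and 13 barcodes) in FMTg. Reg3b stood at 70979 CPM just below 25% and 44016 CPM just above it in Tg, and at 29143 and 29277 CPM in FMTg. Around 60% it stood at 15166 and 15251 CPM in Tg, and at 18166 and 12921.5 CPM in FMTg. Apoa4, an apolipoprotein gene, stood at 14169 and 21893 CPM around 25% in Tg, and at 40723 and 38596 CPM in FMTg.

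Against enterocytes at or below 25%, nucleus-retained long non-coding RNA made up a larger part of the non-mitochondrial UMIs above 25%, in both libraries. Messenger RNA for ribosomal proteins and the respiratory chain made up a smaller part. These are parts of a total that was smaller above 25%, so a larger part need not mean more UMIs per barcode. Malat1, a long non-coding RNA of nuclear speckles, stood at 9387 CPM at or below 25% and 42434 CPM in the range in Tg, and at 22439 and 66809.9 CPM in FMTg. Its log2 ratio of range over low share was 2.18 (95% counting interval 2.17 to 2.19) in Tg and 1.57 (1.57 to 1.58) in FMTg. Neat1, the scaffold RNA of paraspeckles, followed with log2 ratios of 2.04 and 1.33. Of the 4 nucleus-retained long non-coding RNAs that could be measured in Tg, with at least 20 UMIs, 4 were at least 1.5-fold higher, and in FMTg 5 of 6. Over all genes with at least 20 UMIs, 31.2% were that much higher and 13.4% that much lower in Tg, and 18.1% and 16.8% in FMTg.

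Messenger RNAs of ribosomes and of the respiratory chain were lower. Of 75 cytosolic ribosomal protein genes, 59 in Tg and 71 in FMTg were at least 1.5-fold lower above 25%, none was that much higher, and the median log2 ratios were -0.84 and -1.21, beside 0.26 and 0.09 over all genes. Rps4x, for example, stood at 386 CPM at or below 25% and 146 CPM in the range in Tg, and at 419 and 122 CPM in FMTg. Ribosomal protein genes have many processed pseudogenes, among which the counting could have divided reads. Of 74 nuclear-encoded genes of oxidative phosphorylation, whose products join the mitochondrially encoded subunits in the respiratory complexes, 46 in Tg and 50 in FMTg were lower and none higher, with medians of -0.70 and -0.82. Cox5a, a nuclear-encoded subunit of cytochrome oxidase, stood at 1601 and 656 CPM in Tg and at 961 and 320 CPM in FMTg. The barcodes with the larger mitochondrial share therefore held smaller parts of the nuclear messenger RNAs for the same complexes.

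Antioxidant enzymes went the same way, with 11 of 20 genes lower and 2 higher in Tg, 12 of 21 lower and 1 higher in FMTg, and medians of -0.71 and -0.74. Peroxiredoxin 1, encoded by Prdx1, had log2 ratios of -1.31 in Tg and -1.55 in FMTg. Import and chaperone proteins of mitochondria had 7 of 17 genes lower in Tg and 11 in FMTg and none higher. The shares of all genes at least 1.5-fold higher and lower were 31.2% and 13.4% in Tg, and 18.1% and 16.8% in FMTg. The matrix co-chaperonin Hspe1 was among the 10 lowest genes in both libraries, with log2 ratios of -1.80 and -2.14.

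Genes of the villus bottom were lower above 25%, with 9 of 12 in Tg and 10 of 11 in FMTg at least 1.5-fold lower and none higher. Reg3b, a secreted antibacterial lectin, stood at 95454 CPM at or below 25% and 32128 CPM in the range in Tg, and at 46533 and 15864 CPM in FMTg, log2 ratios of -1.57 and -1.55. Genes of the villus tip were higher, 14 of 15 in Tg with a median log2 ratio of 1.45. In FMTg 7 of 15 were higher, with a median of 0.54, and none was lower in either library. Of all genes, 31.2% were at least 1.5-fold higher and 13.4% lower in Tg, and 18.1% and 16.8% in FMTg. The medians over all genes were 0.26 and 0.09. Ada, adenosine deaminase, stood at 674 and 6476 CPM in Tg and at 4292 and 11518 CPM in FMTg. Nt5e, an ectonucleotidase that forms adenosine, stood at 6.56 and 233 CPM in Tg and at 252 and 956 CPM in FMTg. It was found in leukocyte barcodes too, at 97.8 and 118 CPM. Within the range, the step from above 25 to 35% to above 45 to 60% was also compared. The villus tip median log2 ratio was 0.49 in Tg and -0.18 in FMTg, beside 0.07 and 0.11 over all genes. The villus bottom median over the same step was -0.87 in Tg and 0.16 in FMTg. Whether the smaller villus tip difference in FMTg goes beyond the spread between mice could not be tested.

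**Figure D2:**
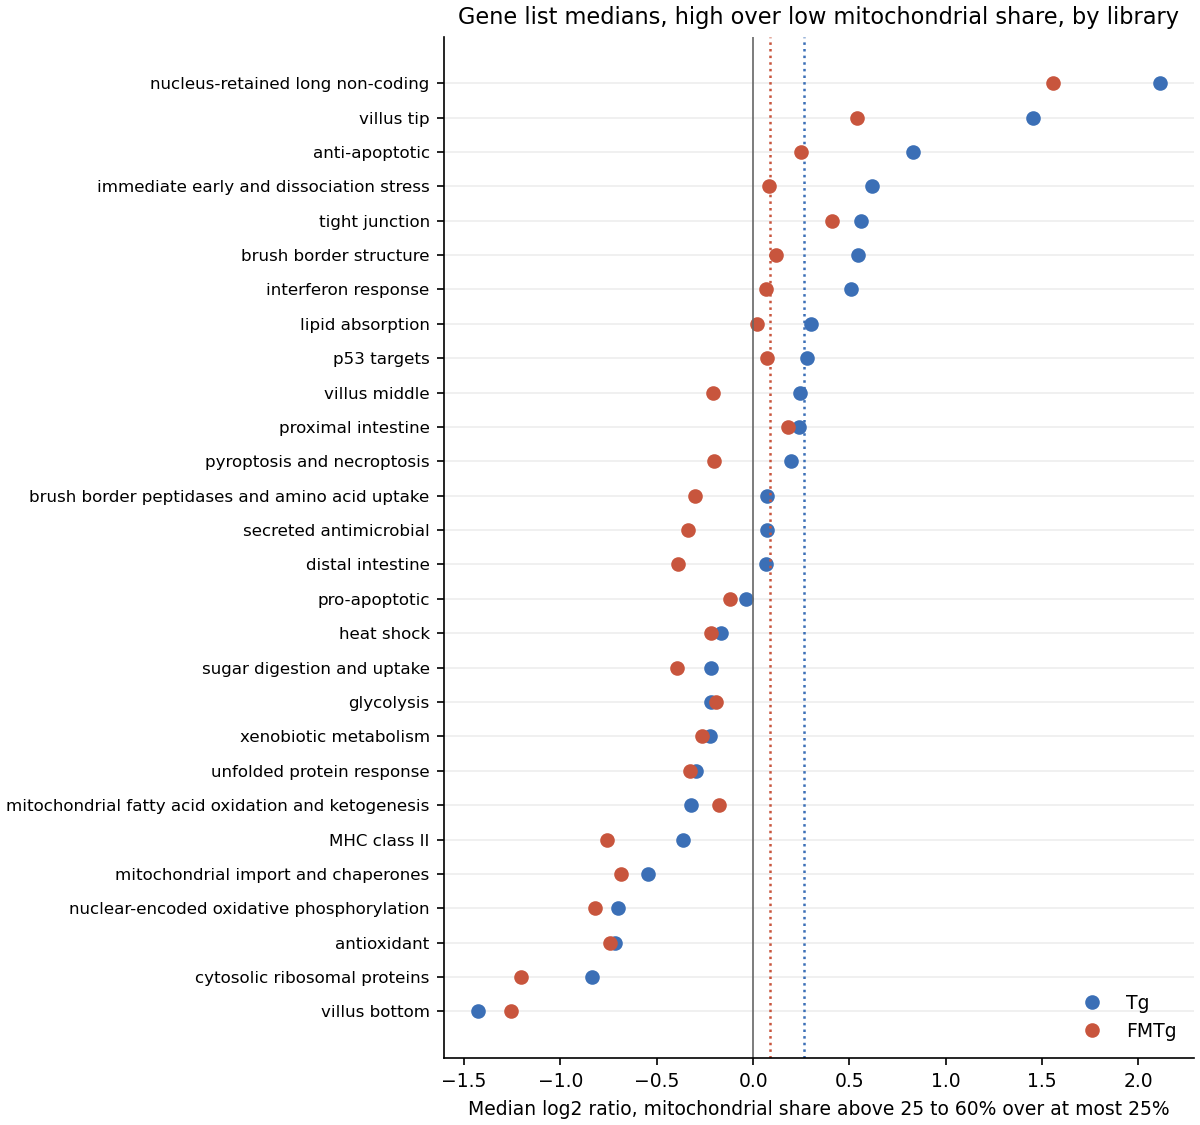
Median log2 ratio of each gene list (horizontal axis) between enterocyte barcodes above 25 to 60% and at or below 25% mitochondrial share, in Tg (blue) and FMTg (red), with dotted lines at the medians over all genes, 0.26 and 0.09. Ribosomal proteins stood at -0.84 and -1.21 and the villus tip list at 1.45 and 0.54.

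Across protein-coding genes the ratio was higher for genes with a longer total exon length. From the shortest to the longest of 4 equal groups of genes with at least 100 UMIs, the median log2 ratio was -0.27, 0.13, 0.38 and 0.54 in Tg and -0.34, 0.02, 0.18 and 0.30 in FMTg. Leaving out ribosomal protein and oxidative phosphorylation genes moved the shortest group to -0.22 and -0.29. Long intergenic non-coding RNAs had medians of 0.74 over 45 genes in Tg and 0.53 over 57 in FMTg. The 4 groups were drawn from the GENCODE vM21 annotation of the GRCm38 build, in which 99.2% of these genes were found in either library.

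Among 7456 genes with at least 100 UMIs in each library, 435 (5.83%) were at least 2-fold apart in the same direction in both, 189 higher (2.53%) and 246 lower (3.30%) above 25%, and 1 (0.0134%) was 2-fold apart in opposite directions. The 189 were 23.8% of the 793 genes that were 2-fold higher in Tg (10.6% of all) and 85.1% of the 222 in FMTg (2.98%). The 246 were 79.1% of the 311 that were 2-fold lower in Tg (4.17%) and 51.5% of the 478 in FMTg (6.41%). The split depended on the scaling, with 139 higher and 429 lower under TMM factors, 132 and 458 under DESeq2 size factors, and 42 and 922 when scaled to all UMIs. At the main scaling the counts of higher genes were less even between the libraries than the counts of lower genes.

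The highest ratios common to both libraries belonged to Cybrd1, a ferric reductase of the duodenal brush border, and to several non-coding transcripts. Cybrd1 stood at 9.74 CPM at or below 25% and 183 CPM in the range in Tg, and at 45.8 and 326 CPM in FMTg. Gm26870 followed with log2 ratios of 3.50 and 2.82. Gm42418, which overlaps a ribosomal RNA repeat, had 2.24 and 1.81, and Lars2, a mitochondrial leucyl-tRNA synthetase, 2.47 and 1.91. The others were G630018N14Rik, Rsad1, Nt5e, Scarb1, Crybb3 and Jchain, the last a plasma cell marker. The lowest were Gip, Timm8a1, Akr1c19, Pycard, Lypd8, Mgst1, Ms4a18, Gsta1, Ppia and Hspe1. Lypd8, a secreted protein of the villus bottom that keeps bacteria from the epithelium, stood at 3881 and 886 CPM in Tg and at 2142 and 562 CPM in FMTg. Gip, a gut hormone of enteroendocrine cells, stood at 178 and 23.8 CPM in Tg and at 485 and 11.1 CPM in FMTg. With an enterocyte gene share of at least 3% in the rule, the log2 ratio of Gip in FMTg was 1.07 in place of -5.45. The 7 enteroendocrine markers together stood at 324 and 110 CPM in Tg and at 1023 and 110 CPM in FMTg.

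p53 target genes were higher in FMTg than in Tg across the whole range of mitochondrial share. Of 46 genes on the list 44 had at least 20 UMIs, of which 12 were 1.5-fold or more higher in FMTg and 4 lower by as much, and 28 had a log2 ratio above 0. The median log2 ratio of FMTg over Tg was 0.28, beside -0.09 over all 10276 genes with at least 20 UMIs. Of those, 8.19% were that much higher and 14.3% that much lower in FMTg.

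The p53 difference was no smaller where the mitochondrial share was matched. The median log2 ratio was 0.30 above 25 to 35% (11 of 41 genes higher, 4 lower, beside 14.0% and 19.3% of all genes), 0.38 above 35 to 45% (15 of 40 higher, 4 lower, beside 9.43% and 18.6%) and 0.49 above 45 to 60% (15 of 40 higher, 1 lower, beside 9.18% and 9.66%). Above 60% it was 0.46 over 36 genes, and at or below 25% it was 0.62, with 22 of 44 higher and 2 lower beside 17.3% and 10.3% of all genes. In the median barcode of the range the list made up 0.30% of non-mitochondrial UMIs in Tg and 0.42% in FMTg, and this was 0.30% in each of the 3 ranges in Tg and 0.40, 0.41 and 0.43% in FMTg. The barcodes of the libraries overlapped widely, with the 5th to 95th percentile from 0.10 to 0.78% in Tg and from 0.15 to 0.85% in FMTg.

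Cdkn1a is the gene of p21, an inhibitor of cyclin-dependent kinases, and lies on chromosome 17 from 29090976 to 29100727 (GRCm38). Its count was 4772 UMIs for Tg (4638 to 4909, exact 95% Poisson) against 11744 for FMTg (11533 to 11958), or 779 and 1166 CPM. The log2 ratio was 0.58 (0.53 to 0.63), and 0.51, 0.61 and 0.66 in the 3 ranges of rising mitochondrial share. Cdkn1a had a UMI in 84.9% of the barcodes in Tg and 95.3% in FMTg, and in 54.1% and 69.6% after thinning to 1200 UMIs. In leukocyte barcodes these percentages were 21.3 and 20.3, and 8.7 and 8.6 after thinning. FMTg was thus above Tg in level and in the share of barcodes, and in that share both were above the leukocyte barcodes of their library.

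Mdm2 itself (chromosome 10, 117688875 to 117710758) had a count of 1638 for Tg (1560 to 1719) against 3950 for FMTg (3828 to 4075), or 267 and 392 CPM, and a log2 ratio of 0.55 (0.47 to 0.64). Within the 3 ranges the ratio was 0.73, 0.89 and 0.38, and above 60% it was 0.04 (-0.22 to 0.30). A 3′ tag need not lie in the part of the gene that recombination removes, so the Mdm2 count does not check the genotype. Mdm2 was also higher above 25% than below it within each library, by a log2 ratio of 1.06 in Tg and 0.69 in FMTg. Trp53, which encodes p53, was sparse, with 75 and 108 UMIs and a log2 ratio of -0.19 (-0.63 to 0.25), an interval that spans 0.

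The p53-regulated cyclin G1 gene Ccng1 stood at 229 CPM in Tg and 353 CPM in FMTg, 0.63 apart on the log2 scale (0.54 to 0.72). The ectodysplasin A2 receptor gene Eda2r had 33 UMIs for Tg and 255 for FMTg, with a log2 ratio of 2.23 (1.71 to 2.80), and was among the 10 highest genes of the whole comparison. Psrc1 and Gtse1, microtubule-associated proteins, had 60 and 236, and 74 and 268 UMIs, with log2 ratios of 1.26 (0.84 to 1.69) and 1.14 (0.76 to 1.53). The stress-response genes Sesn2 and Trp53inp1 stood at 0.73 and 0.61, and Phlda3, an inhibitor of Akt, at 0.67. Several listed targets did not follow: Btg2 stood at 435 and 433 CPM, Rps27l at 414 and 428 CPM, and Bax, an effector of apoptosis, at 149.6 and 161 CPM with an interval from -0.01 to 0.22. Sesn1 and the ferredoxin reductase gene Fdxr were lower in FMTg, with log2 ratios of -1.03 (-1.25 to -0.81) and -1.07 (-1.67 to -0.47).

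**Figure D3:**
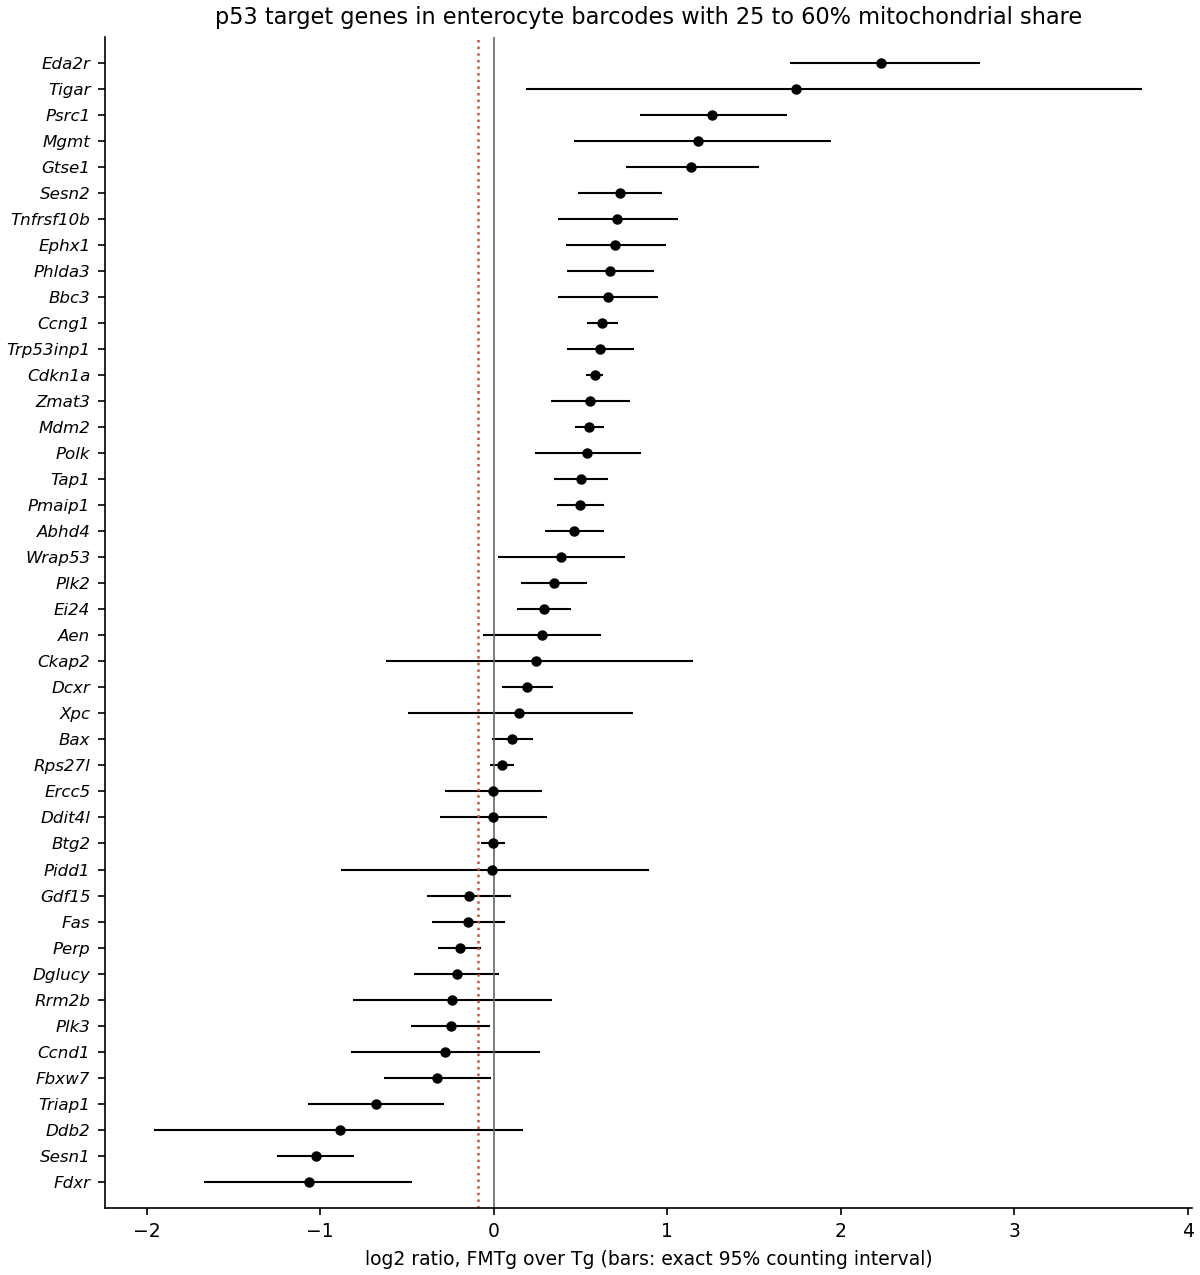
log2 ratio of FMTg over Tg (horizontal axis) in enterocyte barcodes above 25 to 60% mitochondrial share for the 44 p53 target genes with at least 20 UMIs, with exact 95% counting intervals. The dotted line marks the median over all genes, -0.09, and 28 of the 44 genes lie above 0.

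The starts of the p53 targets were searched for a paired p53-type core in RefSeq start regions (GRCm38.p6), shown here because Cdkn1a and Bbc3, described above and below, are among the matches. The motif searched was CAAG or CATG, then any 6 bases, then CTTG or CATG, in the 250 bases upstream of a start. As a set its 4 forms read the same on both strands. A match was found for 3 of the 37 listed genes with a start region, and for 2.04% of all 27025 genes. Each stretch of 60 bases below runs 5′ to 3′ on the gene's strand, with the match in capitals.
Cdkn1a, chr17:29090908-29090967, plus strand: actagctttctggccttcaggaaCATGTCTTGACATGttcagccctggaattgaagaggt
Bbc3, chr7:16309466-16309525, plus strand: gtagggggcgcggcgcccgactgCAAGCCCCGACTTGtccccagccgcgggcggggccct
Ckap2, chr8:22185983-22186042, minus strand: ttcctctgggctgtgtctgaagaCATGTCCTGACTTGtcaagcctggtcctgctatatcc
The levels of the 3 genes differed. Cdkn1a and Bbc3 were higher in FMTg, with log2 ratios of 0.58 and 0.66 (0.37 to 0.95), whereas Ckap2 had an interval that spans 0. A match is a description of these letters and does not show binding.

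Genes that promote apoptosis did not move together. Of 19 measured, 4 were 1.5-fold or more higher in FMTg and 4 lower, with a median log2 ratio of 0.11. Over all genes 8.19% were that much higher and 14.3% that much lower. The p53-induced BH3-only genes Bbc3 (Puma) and Pmaip1 (Noxa) stood at 23.2 and 36.5 CPM, and at 104 and 147 CPM, log2 ratios of 0.66 and 0.50. Bok and Bid were higher by 1.12 (0.92 to 1.32) and 1.51 (0.83 to 2.24). Casp6, a caspase gene, was lower, at 135 and 68.2 CPM (-0.99, -1.14 to -0.84). Of 9 genes that oppose apoptosis 1 was higher and none lower, and of 13 genes of pyroptosis and necroptosis 1 was higher and 3 were lower.

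Among the 3 ranges, markers of the villus zones differed between the libraries most above 25 to 35%, and the villus tip list had the opposite sign above 45 to 60%. Over the whole range, 7 of 11 villus bottom genes were at least 1.5-fold lower in FMTg and 1 was higher. Of 15 villus tip genes 6 were higher and 1 lower, beside 8.19% and 14.3% of all genes. The villus bottom median was -1.31 above 25 to 35%, -0.63 above 35 to 45% and 0.01 above 45 to 60%. The villus tip median was 0.83, 0.57 and -0.13. Above 60% the villus tip median was -0.49 and the villus bottom median 0.20, beside 0.03 over all genes. At or below 25% the villus tip median was 1.19, with 13 of 15 genes at least 1.5-fold higher and none lower. The villus bottom median there was -0.83, with 8 of 12 lower and 2 higher. Of all genes at or below 25%, 17.3% were higher and 10.3% lower, with a median of 0.10. In the 3 ranges Reg3b gave log2 ratios of -1.50, -0.78 and -0.46, and Nt5e 4.64, 3.18 and 0.75.

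Malat1 in Tg stood at 19020.5, 36891 and 67445 CPM in the 3 ranges, and in FMTg at 55265, 75193 and 76235 CPM. Ada in Tg stood at 3331, 6287 and 9489 CPM, and in FMTg at 10876, 12772 and 10666 CPM. Apoa4, an apolipoprotein of chylomicrons, stood at 22245, 28357 and 29877 CPM in Tg and at 42507, 41992 and 34919 CPM in FMTg. In Tg the level of these 3 genes was higher in each next range, whereas in FMTg Ada and Apoa4 were highest in the middle or the first range and Malat1 differed little between the upper 2. Cdkn1a by contrast stood at 789.6, 775 and 772 CPM in Tg and at 1128, 1180 and 1219.6 CPM in FMTg. The 3 FMTg values were all above the 3 Tg values. Each value is pooled over barcodes, and the ranges of a library come from the same mouse, so they are not replicates. How many other genes were separated in this way was not counted.

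**Figure D4:**
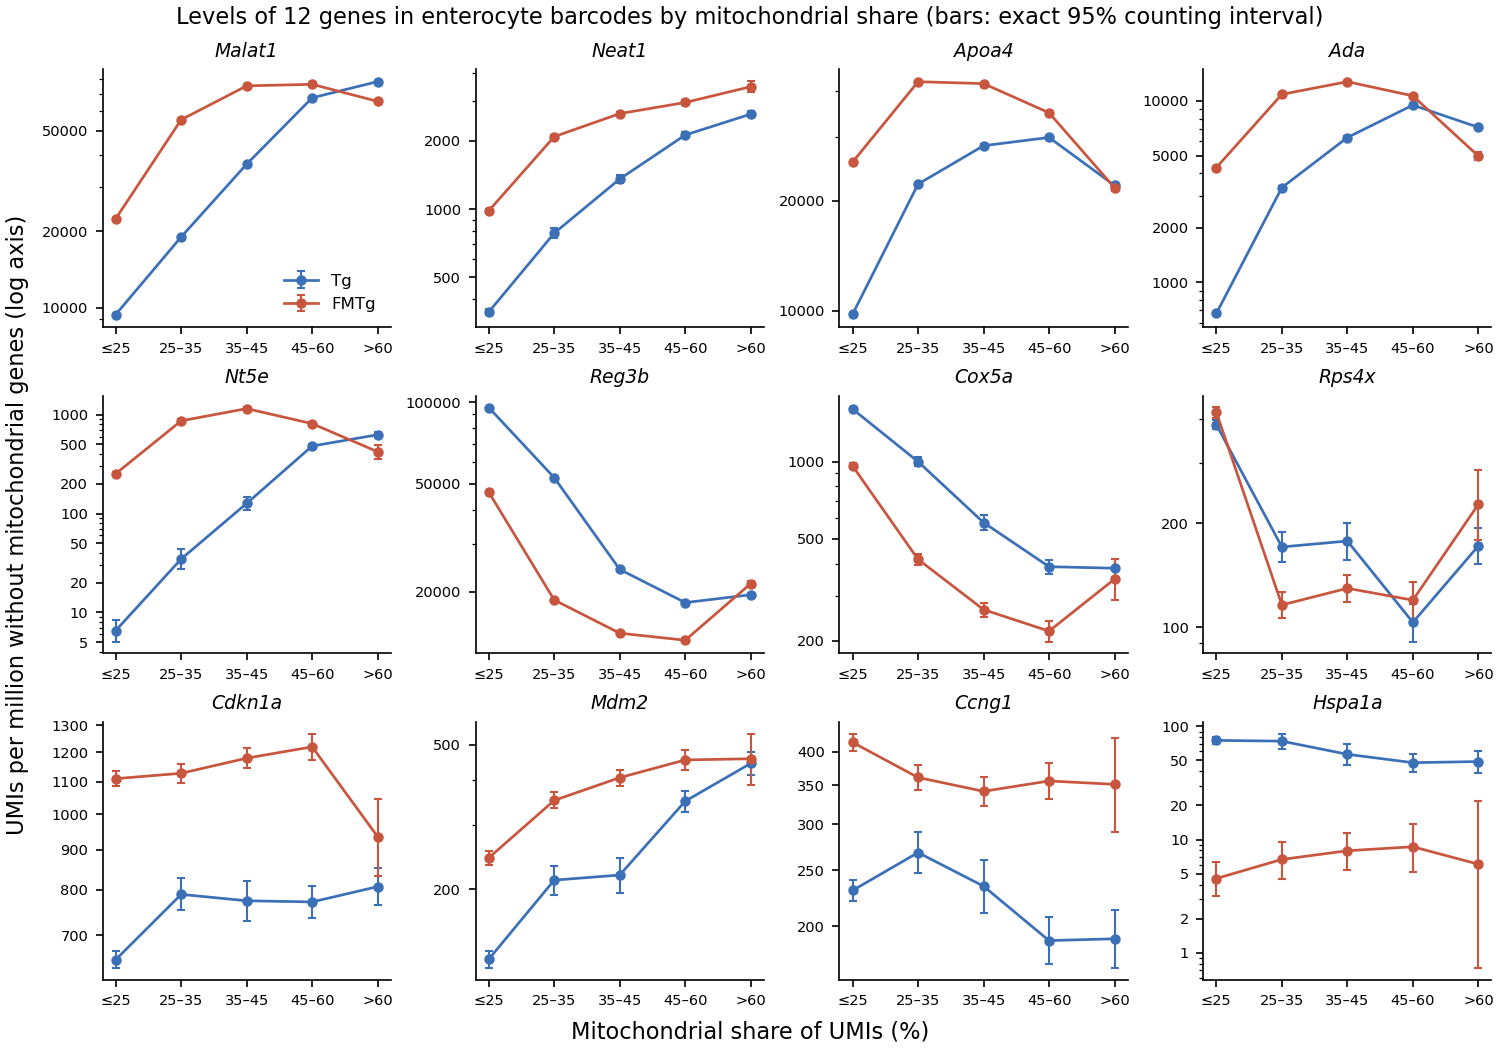
Level of 12 genes in CPM (vertical axis, log scale, with exact 95% counting intervals) by mitochondrial share in percent (horizontal axis) in Tg (blue) and FMTg (red). Malat1 went from 9387 to 78168 CPM in Tg and from 22439 to 65286 CPM in FMTg, while Cdkn1a stayed between 651 and 808 CPM in Tg and between 936 and 1220 CPM in FMTg.

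Genes of sugar digestion and uptake were lower in FMTg at every mitochondrial share within the range. Of 11 measured genes 6 were at least 1.5-fold lower and none was higher, beside 14.3% and 8.19% of all genes. The median log2 ratio was -0.64, with -0.74, -0.92 and -0.54 in the 3 ranges. Above 60% the median was 0.23 over 10 genes, beside 0.03 over all genes. Sis, sucrase-isomaltase of the brush border, stood at 1074 CPM in Tg and 450 CPM in FMTg (-1.25, -1.31 to -1.20). Slc2a2, the basolateral glucose transporter GLUT2, stood at 226 and 95.4 CPM (-1.25, -1.37 to -1.13), and Slc2a5, the fructose transporter, at 118 and 62.6 CPM. Slc5a1, the sodium-glucose cotransporter of the brush border, was close in both, with 2509 and 2326 CPM.

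Peptidases and amino acid transporters of the brush border had 4 of 19 genes lower and none higher, with a median of -0.37. Over all genes 14.3% were lower and 8.19% higher by at least 1.5-fold. Mme (neprilysin) stood at 841 and 518 CPM and the imino acid transporter Slc6a20a at 80.0 and 35.6 CPM. Structural genes of the brush border had a median of 0.00, with 1 of 20 higher and none lower. Lipid absorption genes were divided, 4 of 23 higher and 3 lower, the latter close to the share of all genes. Apob, the scaffold of chylomicrons, stood at 5881 and 7260 CPM, and Acsl5, a fatty acyl-CoA synthetase, at 1225 and 684 CPM.

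Nuclear-encoded oxidative phosphorylation genes were lower in FMTg, 25 of 74 at least 1.5-fold and none higher, with a median of -0.47. The median was -0.69, -0.57 and -0.19 in the 3 ranges and -0.43 at or below 25%. Cox5a was lower in all 3, by -1.26, -1.13 and -0.83. Antioxidant genes had 4 of 21 lower and 1 higher, close to the 14.3% and 8.19% of all genes, and Prdx1 stood at 690 and 267 CPM (-1.37, -1.44 to -1.30). Of 14 glycolysis genes 2 were lower and 1 higher. The lower 2 were Eno1, enolase, at 502 and 228 CPM, and Pgam1, phosphoglycerate mutase, at 123 and 61.6 CPM. The higher gene was Hk2, a hexokinase, with 40 and 291 UMIs (2.14, 1.66 to 2.66). Cytosolic ribosomal protein genes, in contrast to their difference between high and low mitochondrial share, had a median of 0.01 between the libraries, with 3 of 75 higher and 2 lower. That median was -0.21, -0.07 and 0.26 in the 3 ranges, and 0.39 at or below 25%.

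The inducible heat shock genes Hspa1a and Hspa1b had the lowest ratios among genes with at least 100 UMIs that were found in at least 5% of the barcodes of the higher library. Hspa1a gave 364 UMIs in Tg and 76 in FMTg, 59.4 and 7.54 CPM (-2.98, -3.35 to -2.62), and Hspa1b 403 and 103 UMIs, 65.8 and 10.2 CPM (-2.69, -3.01 to -2.37). The coding sequences of these neighbouring genes are nearly identical, so that reads may be divided between them. The difference was not limited to enterocytes, since Hspa1a in leukocyte barcodes stood at 63.2 CPM in Tg and 6.77 CPM in FMTg. Of 13 heat shock genes 5 were at least 1.5-fold lower and none higher. The constitutive chaperone gene Hspa8 stood at 1308 and 932 CPM. Of 17 genes of the immediate early and dissociation response, 2 were higher and 3 lower, close to the 8.19% and 14.3% of all genes. Fosb stood at 158 and 77.4 CPM, and Socs3, a feedback inhibitor of cytokine signalling, at 35.6 and 78.5 CPM. Dissociation time and handling of the 2 preparations, to which such genes respond, are not stated in the labels and cannot be told apart from the genotype.

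Interferon response genes were higher in part, 8 of 30 at least 1.5-fold and 3 lower, beside 8.19% and 14.3% of all genes. Their median was 0.30, and 0.67, 0.21 and 0.10 in the 3 ranges. Rsad2, an antiviral enzyme, gave 251 and 1401 UMIs (1.76, 1.57 to 1.96) and was higher by 2.28, 1.33 and 1.78 in the 3 ranges. The DNA and RNA sensor Zbp1 was lower, at 170 and 108 CPM. Tight junction genes had 4 of 14 higher and 1 lower. Cldn4 stood at 108 and 274 CPM (1.34, 1.22 to 1.46), with 2.35, 1.97 and 0.32 in the 3 ranges, and Cldn7 at 1614 and 2489 CPM (0.63, 0.59 to 0.66). Cldn15, a cation-pore claudin, was lower, at 478 and 266 CPM. Secreted antimicrobial genes had 6 of 13 higher and 6 lower, with a median of 0.44 that was -0.70 when the rule asked for an enterocyte gene share of at least 3%. Reg3g was lower (-1.13), while Nos2, which forms nitric oxide, gave 6 and 133 UMIs (3.75, 2.59 to 5.22).

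**Figure D5:**
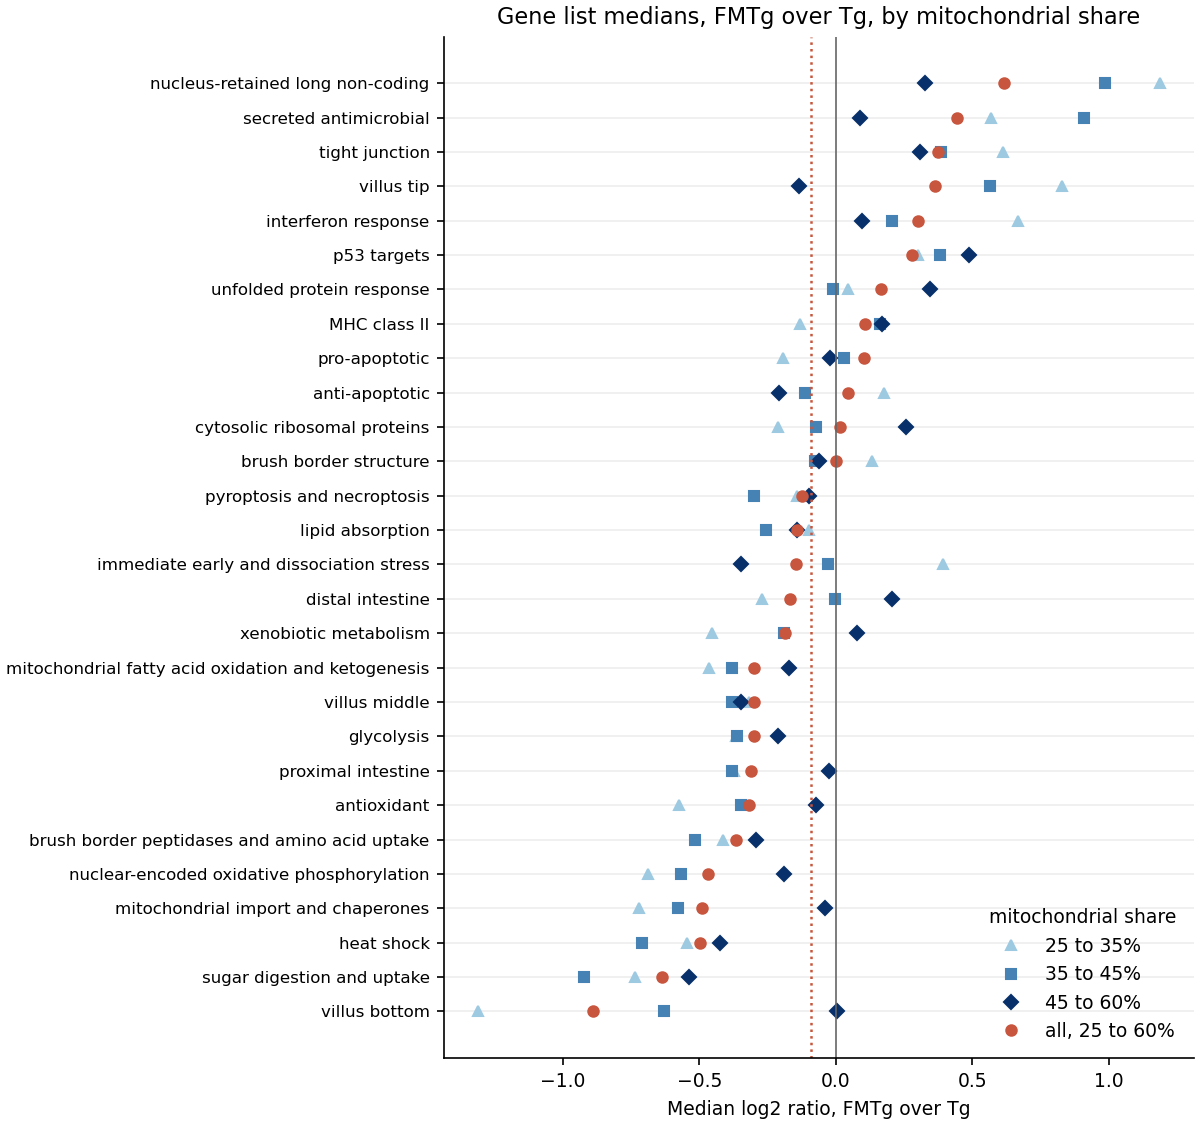
Median log2 ratio of FMTg over Tg for each gene list (horizontal axis) over the whole range of 25 to 60% mitochondrial share (red circles) and in its 3 parts (blue symbols), with a dotted line at the median over all genes, -0.09. The p53 list stood at 0.30, 0.38 and 0.49 in the 3 parts and the villus bottom list at -1.31, -0.63 and 0.01.

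Among the other lists, the counts of genes at least 1.5-fold higher and lower in FMTg were 1 and 0 of 17 for the unfolded protein response, 1 and 2 of 7 for MHC class II, 1 and 4 of 24 for fatty acid oxidation, and 0 and 5 of 17 for mitochondrial import, whose median log2 ratio was -0.49. They were 1 and 4 of 22 for xenobiotic metabolism, 1 and 2 of 9 for proximal and 0 and 1 of 7 for distal intestine, and 0 and 4 of 14 for the villus middle. Over all genes 8.19% were higher and 14.3% lower, close to the shares of several of these lists. Cyp3a11, a cytochrome P450 of drug metabolism, was the 1 higher xenobiotic gene, at 659 and 1287 CPM (0.97, 0.91 to 1.02). Of the 5 measured nucleus-retained RNAs 3 were higher and none lower, with a median of 0.62.

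Among 7705 genes with at least 100 UMIs, 323 (4.19%) were at least 2-fold apart between FMTg and Tg, 150 higher (1.95%) and 173 lower (2.25%). The split was 180 higher and 122 lower under TMM factors, 185 and 119 under DESeq2 size factors, and 195 and 109 when scaled to all UMIs. The highest were Rims2, Zfp182, Gm42047, B3galt5, Agpat4, Cpe, Duoxa2, Gpx3, Cenpm and Eda2r. Rims2, known as a scaffold of synaptic vesicle release, had 2 UMIs for Tg and 180 for FMTg, with a log2 ratio of 5.77 (3.90 to 8.83). Zfp182, a zinc finger gene on the X chromosome, gave 0 and 177 UMIs, which makes it at least 35.9-fold higher in FMTg when the 0 is set to 3 counts over the library. It was also at 0 in Tg leukocyte barcodes and at 33.0 CPM in FMTg ones, and Gm42047 stood there at 0.82 and 24.8 CPM. The differences of these 2 genes were thus present in another cell class of the same libraries. Duoxa2, the maturation factor of the epithelial dual oxidase, gave 165 and 1726 UMIs, and B3galt5, a galactosyltransferase, 82 and 953.

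After Hspa1a and Hspa1b, the lowest genes were Pck1, Slc28a1, Rec8, Gstp1, Ghrl, Iah1, Ankrd37 and Snrpn. Pck1, the phosphoenolpyruvate carboxykinase of gluconeogenesis, stood at 145 and 23.9 CPM, with log2 ratios of -2.85, -2.39 and -2.75 in the 3 ranges. Slc28a1, a nucleoside transporter, stood at 41.1 and 6.95 CPM, and Rec8, known as a meiotic cohesin, at 70.4 and 12.1 CPM. Gstp1, a glutathione transferase with near-identical neighbours, stood at 168 and 33.5 CPM. Ghrl, the hormone ghrelin, had 58.1 and 13.3 CPM, and in Tg it stood at 15.3, 159 and 34.9 CPM in the 3 ranges, so the difference came largely from the middle one.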

How the data were processed

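Single-cell suspensions of 2 small intestines (1 Tg, 1 FMTg mouse) were sequenced as 10x Genomics 3′ libraries. The authors deposited whole-number UMI counts per gene and barcode, without normalization, made with CASAVA 1.8.1 and Cell Ranger 3.0 on mm10, per the submitters' processing notes. The 31053 genes are given by symbol, of which 30416 matched 1 gene each in GENCODE vM21 (GRCm38), the source of positions and lengths.

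The libraries held 54013005 (Tg) and 49805718 (FMTg) UMIs, with a median of 5509 and 5109 per barcode. UMIs were summed over the barcodes of a class and divided by the UMIs of that class without the 13 mitochondrial genes, giving CPM. Log2 ratios have exact conditional binomial 95% intervals, counts exact Poisson and shares exact Clopper-Pearson intervals. With 1 library per genotype no test was made. A gene at 0 was set to 3 counts. List members needed 20 UMIs over the classes compared and other genes 100. Shares of barcodes with a UMI were also computed on barcodes thinned to 1200 UMIs without mitochondrial genes, leaving out 168 Tg and 228 FMTg leukocyte barcodes and no enterocyte barcode. Doublets were kept. Removing the 315 and 326 barcodes with the highest scrublet scores was an alternative. The ratio calculation was tested on simulated data.

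The barcodes and the 28 gene lists were chosen with earlier results of these data known. Genes named outside the lists were the 10 highest and 10 lowest ratios of each comparison among genes with at least 100 UMIs found in at least 5% of the barcodes of the higher library, without sex-linked marker, immune receptor, mitochondrial, ribosomal protein and rule genes. Between high and low mitochondrial share the direction had to be the same in both libraries, and genes were ranked by the smaller ratio. Within lists, genes were named by UMIs and by size of the ratio, and some further list members were chosen after their values were seen. Alternatives changed the limits of the rule, the scaling (edgeR 4.0.16 TMM factors, DESeq2 1.42.0 size factors), the weighting, the gene minimum and the depth. The software was R 4.3.3 and Python 3.11.15 with scanpy 1.11.5, scipy 1.17.1 and numpy 2.4.6.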

Additional observations from a re-analysis of the deposited data

Results flagged for a closer look

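The hormone gene Gip was lower in FMTg than in Tg in enterocyte barcodes above 25 to 60% mitochondrial share, with a log2 ratio of -1.10, and higher in FMTg at or below 25%, with 1.45. It stands out because the directions are opposite. The difference between them was not tested. Few barcodes in the range held it, 12.9% in Tg and 6.05% in FMTg, and 15.6% and 9.45% did at or below 25%. Its level in the range, 23.8 and 11.1 CPM, was below the 30.8 and 26.7 CPM of leukocyte barcodes. The part of free RNA in these values was not tested.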

How the results depend on the processing

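The median log2 ratio of the p53 targets was above 0 under all 17 alternatives, from 0.24 to 0.49. The number of genes at least 2-fold apart between FMTg and Tg, 323, was 752 with a gene minimum of 20 UMIs and 513 after thinning, and, in alternatives chosen after seeing the data, 503 above 25 to 35% and 122 above 45 to 60% mitochondrial share. The number 2-fold apart in both libraries between high and low share, 435, was 964 when scaled to all UMIs, 693 with the lower gene minimum, 101 for barcodes above 25 to 35% and 730 for those above 45 to 60%. An upper limit of 50% left 578 of the 1044 Tg barcodes. Scaling to all UMIs moved every log2 ratio of high over low share by -0.53 in Tg and -0.41 in FMTg and every ratio of FMTg over Tg by 0.10. TMM and DESeq2 factors moved those of high over low share in Tg by -0.25 and -0.30. Of the 337 list medians and gene ratios, 93 had the other sign under at least 1 alternative, 8 of them at least 1.5-fold apart in the main values with an interval off 0. Those 8 are named next. The sign of FMTg over Tg differed for Akr1c19 after thinning (0.14) and above 35 to 45% (0.20) and 45 to 60% (0.14), above 45 to 60% also for Lypd8 (0.22) and the villus bottom list (0.0053), and above 25 to 35% for Gm26870 (1.27) and G630018N14Rik (0.95). The sign of high over low share differed in Tg above 25 to 35% for B3galt5 (-0.28) and Gpx3 (-1.24), and in FMTg for Gip with an enterocyte gene share of at least 3% (1.07). Among the smaller medians, those of FMTg over Tg were -0.70 in place of 0.44 for secreted antimicrobial genes with an enterocyte gene share of at least 3%, -0.13 in place of 0.36 for the villus tip above 45 to 60%, and 0.39 in place of -0.14 for immediate early genes above 25 to 35%. The p53 list between high and low share in Tg was -0.26 in place of 0.28 when scaled to all UMIs. The cause was not tested. No paired analysis was possible because each genotype has 1 library. Depth limits genes of few UMIs, and no interval covers the spread between mice.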
